A study of Mus musculus with 6 samples.

Results

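The 35 genes described here make cholesterol, control that synthesis through the SREBP factors, make fatty acids under the same factors, or move sterols within and out of the cell. They were taken by gene symbol from a deposited table of 23842 genes, and all 35 were in the table and passed the filter on low counts. The table holds RNA sequencing counts of mouse embryonic fibroblasts, cells grown out from embryos of C57BL/6 mice, in high-glucose medium with serum and without treatment. There are 3 libraries from NGLY1-/- cells, called knockout-labelled here, and 3 from WT cells. NGLY1 is the cytosolic enzyme that removes N-linked sugar chains from glycoproteins on their way to degradation, and the comparison addresses what its loss does to gene expression. How the gene was disrupted and the age of the embryos are not given in the labels, nor is it stated whether each library had its own embryo or culture. The p-values therefore reflect only how far these libraries vary, and that variation may be technical.

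Cholesterol is built from acetyl-CoA in a single chain of enzymes: the first part runs through mevalonate to squalene, and the second closes squalene to lanosterol and trims it to cholesterol. The genes of this chain are switched on together by SREBP transcription factors, which lie in the endoplasmic reticulum membrane bound to the escort protein SCAP. When membrane sterol is low, SCAP carries them to the Golgi for cleavage, and when sterol is high the INSIG proteins hold SCAP back. SREBPs also drive fatty acid synthesis and desaturation, while a sterol-rich cell exports cholesterol through ABC transporters whose genes answer to the LXR receptors. Fibroblasts can both make cholesterol and take it up from lipoproteins in serum.

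Counts ran from 33007239 to 37841558 per knockout-labelled library and from 27323577 to 37790710 per wild-type library, and genes typed as ribosomal RNA took 0.208 to 3.73% of the knockout-labelled and 1.45 to 2.82% of the wild-type counts. Ngly1 itself ranged over 420 to 618 reads in the knockout-labelled libraries and over 307 to 668 reads in the wild-type libraries (adjusted p = 0.99 in edgeR's quasi-likelihood test). A count over the whole gene does not test the genotype when the disrupted part is unknown, so every direction here rests on the labels. Of 15039 genes tested, 30.2% were called lower and 30.7% higher at a false discovery rate of 0.05, together 60.9%. These shares are the background for each count below. The members and lists were chosen with earlier results of these data known, so the counts are description. Markers of the labelled cell type were present, with Col1a1 at 1020 to 1240 CPM (the count scaled to library size and composition) in the knockout-labelled libraries and 1120 to 1270 CPM in the wild-type libraries. Summed over 10 fibroblast markers the level was 3895 to 4465 CPM in the knockout-labelled libraries and 5520 to 6387 CPM in the wild-type libraries, with 6 of the 9 tested markers lower and 1 higher. The adipocyte markers in the table summed to 43.2 to 51.2 CPM in the knockout-labelled libraries and 23.0 to 56.8 CPM in the wild-type libraries, nearly all from Plin4. Of the 3 adipocyte markers tested, Fabp4, a fatty acid binding protein, was lower (log2 fold change -2.34, adjusted p = 0.000455) and Pparg, an adipogenic transcription factor, was higher (1.26, adjusted p = 0.00254), while the mature fat cell markers Adipoq and Plin1 had 3 reads and 1 read over all libraries. In the knockout-labelled libraries the summed levels were 0.592 to 0.762 CPM for hepatocyte, 2.62 to 2.96 CPM for macrophage and leukocyte, 2.73 to 2.86 CPM for endothelial and 0.701 to 1.504 CPM for epithelial markers. In the wild-type libraries they were 0.549 to 0.590 CPM, 2.12 to 3.66 CPM, 1.49 to 2.20 CPM and 1.83 to 2.52 CPM in the same order. Of the tested markers in these lists, 1 of 2 endothelial markers was higher (Kdr, 0.95 on the log2 scale) and 2 of 3 epithelial markers were lower (Cdh1, -1.51, and Krt8, -4.5), and the single hepatocyte and the single macrophage marker tested were not called. Alb had 2 reads and Ptprc 3 over all libraries, and Cd68, a lysosomal protein not limited to macrophages, had 527. The part of these marker levels in the results was not tested, and in bulk RNA fewer cells of a type and less RNA per cell cannot be told apart.

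Promoter sequences from RefSeq (assembly GRCm38.p6, 250 bases before to 50 after the annotated start) were matched for 26 of the 35 genes in 34 windows, and 4 are shown because they cover the 3 enzyme genes with the steepest falls and the only enzyme gene with a sterol regulatory element match. Capitals mark matches, on either strand, to TCACNCCAC (a sterol regulatory element type), CACGTG (an E-box) or CCAAT (the NF-Y box, ATTGG on the other strand), and each sequence is written 5′ to 3′ on the gene's own strand, which the sign gives.
Hmgcs1, chr13:119690101-119690400 (+): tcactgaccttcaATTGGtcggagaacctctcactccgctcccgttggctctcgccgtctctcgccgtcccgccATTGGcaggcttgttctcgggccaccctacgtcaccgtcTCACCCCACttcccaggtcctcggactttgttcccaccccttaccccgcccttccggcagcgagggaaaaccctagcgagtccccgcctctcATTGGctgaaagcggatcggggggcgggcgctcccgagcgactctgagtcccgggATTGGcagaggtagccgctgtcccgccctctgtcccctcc
Mvd, chr8:122443373-122443672 (-): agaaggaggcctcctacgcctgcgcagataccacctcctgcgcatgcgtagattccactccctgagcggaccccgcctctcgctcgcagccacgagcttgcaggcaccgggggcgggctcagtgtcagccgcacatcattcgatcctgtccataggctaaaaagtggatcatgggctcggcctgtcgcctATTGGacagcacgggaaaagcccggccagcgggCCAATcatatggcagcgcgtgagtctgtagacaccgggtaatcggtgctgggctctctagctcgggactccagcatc
Nsdhl, chrX:72918271-72918570 (+): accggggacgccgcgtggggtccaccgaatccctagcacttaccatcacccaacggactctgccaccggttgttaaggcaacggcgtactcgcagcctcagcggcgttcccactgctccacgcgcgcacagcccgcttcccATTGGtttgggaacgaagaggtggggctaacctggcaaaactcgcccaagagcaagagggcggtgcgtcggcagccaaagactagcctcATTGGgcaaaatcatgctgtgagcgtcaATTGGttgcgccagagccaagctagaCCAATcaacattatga
Acat2, chr17:12960676-12960975 (-): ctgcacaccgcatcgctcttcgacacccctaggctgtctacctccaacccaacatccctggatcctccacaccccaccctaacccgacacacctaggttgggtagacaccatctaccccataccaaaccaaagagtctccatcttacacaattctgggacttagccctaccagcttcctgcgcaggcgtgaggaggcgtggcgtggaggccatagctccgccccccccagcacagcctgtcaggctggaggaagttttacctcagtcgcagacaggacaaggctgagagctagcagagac

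The Hmgcs1 window held 1 sterol regulatory element match, beginning at position -137 from the start, and 4 NF-Y boxes. Mvd held 2 NF-Y boxes and Nsdhl 4, while Acat2, the enzyme gene with the largest fall, held no match to any of the 3 motifs. The NF-Y box was present in 14 of the 15 cholesterol enzyme genes with a window, or 93.3%, against 41.1% of all 27025 genes with windows and 43.5% of the tested ones. The E-box was in 3 of these 15 genes, or 20%, against 8.09% of all genes with windows and 11.5% of the tested ones, and the sterol regulatory element match was in 1, or 6.67%, against 1.44%. Across the members, only 1 pair of matches overlapped, both of them NF-Y boxes in Fasn. Genes without a window in the table were Fdps, Fdft1, Sqle, Scd1, Scd2, Fads1, Stard4, Npc1 and Abcg1. A match describes letters in the window and does not show that a factor binds there.

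Transcripts of cholesterol synthesis were lower along nearly the whole chain. Of its 18 enzyme genes, 16 were lower in the knockout-labelled libraries and 0 higher, against 30.2% lower among all tested genes, and the median log2 fold change was -0.77 against -0.04 for all tested genes. In the same 16 genes every knockout-labelled library lay below every wild-type library, an arrangement found in 33.5% of tested genes. Falls of at least 2-fold were called for 5 of the 18, namely Acat2, Mvk, Mvd, Nsdhl and Sc5d, against 14.9% of tested genes. The summed level of the 18 genes was 2133, 1602 and 1687 CPM in knockout-labelled replicates 1 to 3, against 2860, 3054 and 2611 CPM in wild-type replicates 1 to 3, a ratio of 0.636. The part up to squalene and the part from squalene on had nearly equal ratios of summed level, 0.629 and 0.641.

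**Figure D1:**
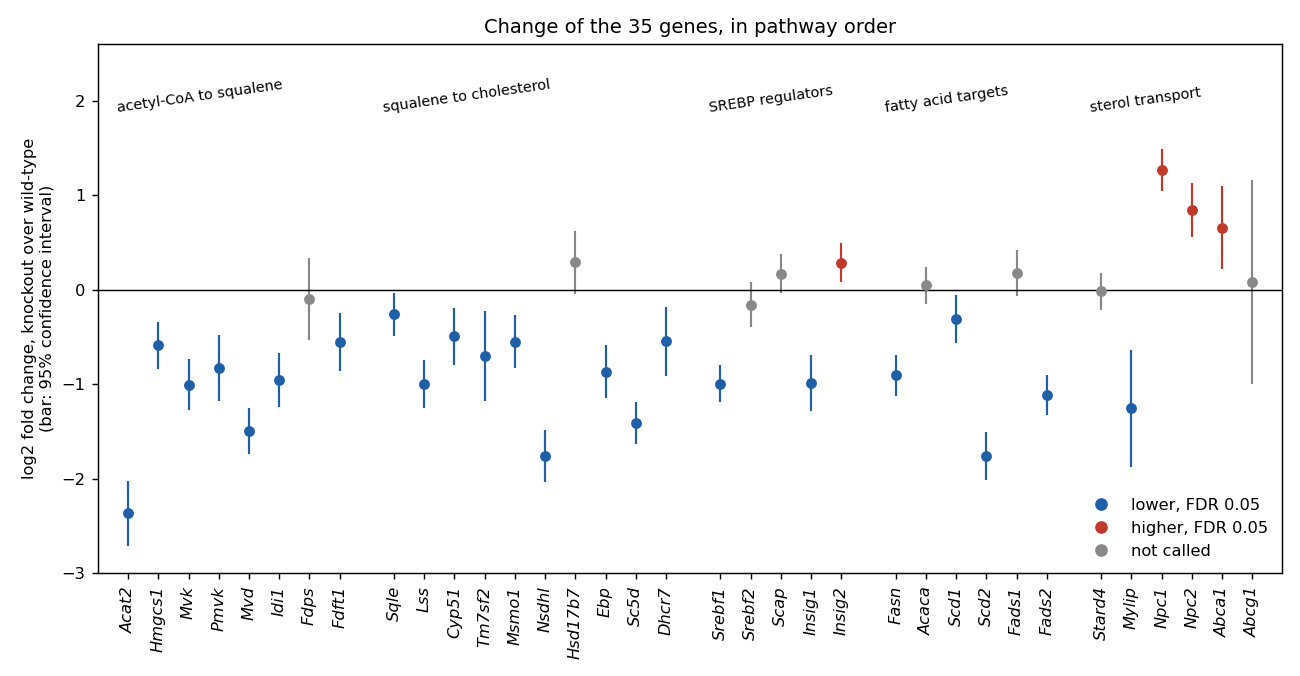
Log2 fold change of the 35 genes, knockout-labelled over wild-type, in pathway order on the x axis. Points are edgeR estimates with 95% confidence intervals, blue where called lower, red where called higher and grey where not called. The enzyme genes lie below 0 apart from Hsd17b7, and Npc1, Npc2 and Abca1 stand above 0 at the right.

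The largest fall was at the entry to the pathway. Acat2, the cytosolic thiolase that joins acetyl-CoA units (chromosome 17, 12943042 to 12960725, GRCm38), had 47.2, 37.5 and 32.2 CPM in the knockout-labelled libraries, against 199.7, 225.5 and 177 CPM in the wild-type libraries. The groups stood far apart, with a log2 fold change of -2.36 ± 0.15 (SE), or 5.15-fold lower (adjusted p = 1.28e-06). Its neighbouring paralog Acat3 carried few reads, with 3, 1 and 1 in the knockout-labelled libraries against 50, 16 and 26 in the wild-type libraries, so Acat2 held 99.81 to 99.92% of their joint counts in the knockout-labelled libraries and 99.39 to 99.82% in the wild-type libraries. Hmgcs1, whose product adds the next unit to give HMG-CoA, had 216, 172 and 199.6 CPM in the knockout-labelled libraries and 291, 319.9 and 272 CPM in the wild-type libraries. That is a smaller fall of 1.5-fold (log2 fold change -0.59 ± 0.11, adjusted p = 0.00117), on chromosome 13, whose tested genes had a median log2 fold change of 0.43.

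The kinases and the decarboxylase that turn mevalonate into the isoprene unit fell together. Mvk, mevalonate kinase, had 25.6, 20.5 and 20.5 CPM in the knockout-labelled libraries, against 43.2, 47.6 and 42.5 CPM in the wild-type libraries (2.0-fold lower, adjusted p = 5.99e-05). Pmvk, the next kinase, was 1.78-fold lower (adjusted p = 0.00118). Mvd, the decarboxylase, had 25.6, 27.6 and 25.5 CPM in the knockout-labelled libraries, against 73.2, 81.9 and 66.5 CPM in the wild-type libraries. Its fall of 2.82-fold (log2 fold change -1.49 ± 0.11, adjusted p = 2.02e-06) was among the steepest, and its knockout-labelled libraries differed little from each other. Idi1, the isomerase of the isoprene unit, was 1.93-fold lower (adjusted p = 0.000122).

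Of the condensing enzymes that follow, Fdft1 was lower and Fdps was not called. Fdps, which makes farnesyl diphosphate, the branch point to dolichol, ubiquinone and prenylated proteins, had 411, 272 and 254 CPM in the knockout-labelled libraries and 357, 369 and 274 CPM in the wild-type libraries. The groups overlapped and the gene was not called (log2 fold change -0.09, 95% confidence interval -0.53 to 0.34, adjusted p = 0.688), with a value that became positive without knockout replicate 2 or 3. Fdft1, squalene synthase, which commits farnesyl units to sterols, was 1.47-fold lower (adjusted p = 0.00609). The Fdft1 and Ctsb gene ranges overlap by 774 bases, and with no strand setting given in the sources used here, reads there could have gone to either gene.

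**Figure D2:**
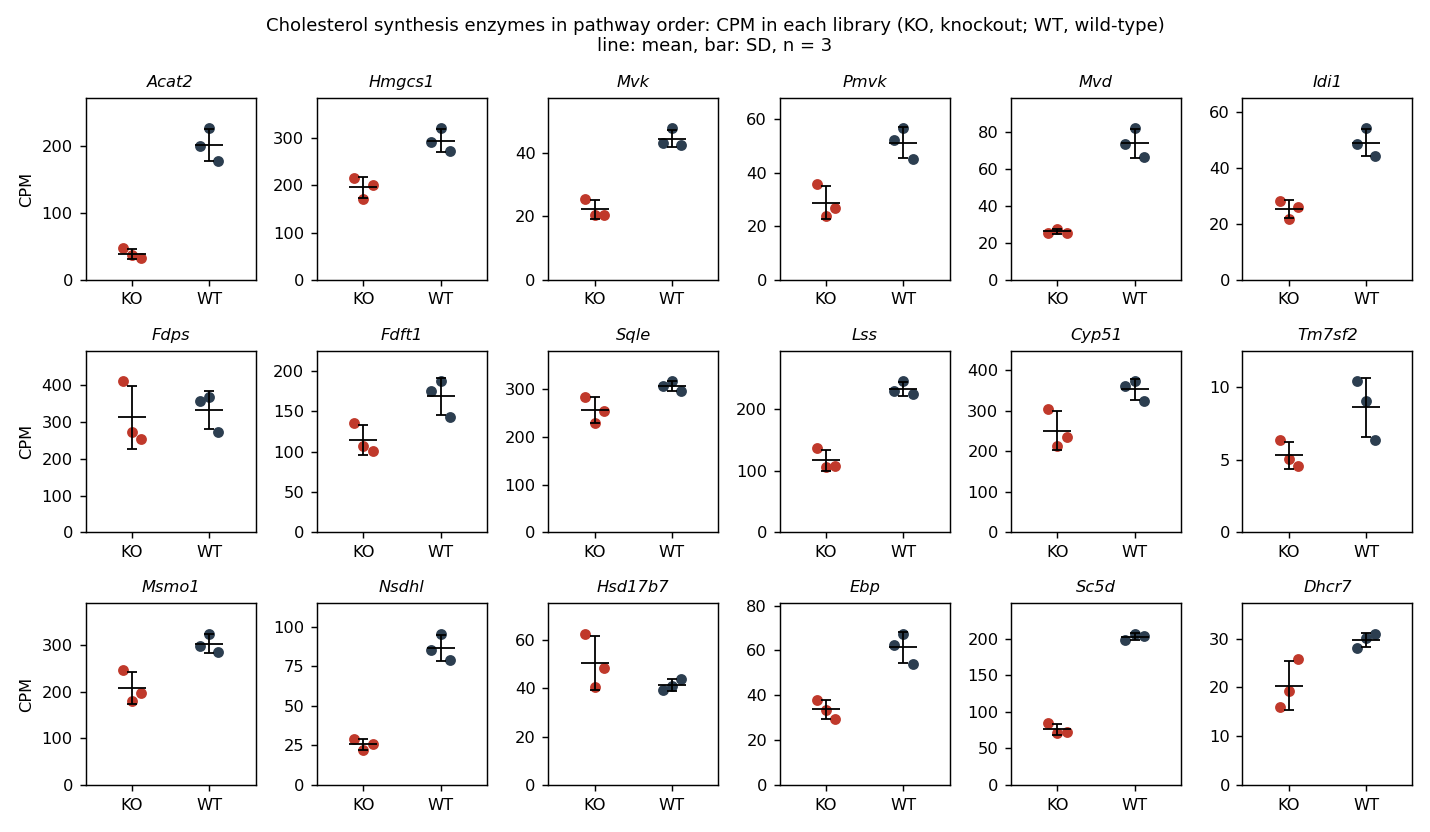
CPM of each of the 18 enzyme genes in each library, in pathway order from Acat2 to Dhcr7, with knockout-labelled libraries (KO) left of wild-type libraries (WT) in each panel. Lines and bars give mean and SD of 3 libraries. Each panel has its own axis. Only Fdps and Hsd17b7 show overlapping groups, and the fold differences are largest for Acat2, Nsdhl, Mvd and Sc5d.

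From squalene on, 9 of 10 enzyme genes were lower. Sqle, squalene epoxidase, had 283, 229.6 and 254 CPM in the knockout-labelled libraries and 305, 317 and 296 CPM in the wild-type libraries. This was a fall of 1.2-fold (adjusted p = 0.0463) with groups that did not overlap but a call that was lost under 7 alternatives, with adjusted p from 0.051 to 0.231, among them leaving out knockout replicate 2 or 3 or wild-type replicate 1 or 2. Lss, lanosterol synthase, which closes the sterol rings, had 136, 106 and 108 CPM in the knockout-labelled libraries, against 230.4, 246 and 224 CPM in the wild-type libraries (2.0-fold lower, adjusted p = 4.45e-05).

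Lanosterol is then demethylated, reduced and rearranged. Cyp51, the lanosterol demethylase, was 1.40-fold lower (adjusted p = 0.0101), a call lost without knockout replicate 2 or 3 (adjusted p = 0.056 and 0.0556). Tm7sf2, a sterol reductase and the enzyme gene with the lowest level, had 4.57 to 6.34 CPM in the knockout-labelled libraries and 6.37 to 10.4 CPM in the wild-type libraries. It was called lower (1.62-fold, adjusted p = 0.0171), but not without knockout replicate 2 or 3 or wild-type replicate 1 or 2, where the adjusted p was 0.0529 to 0.0807. Msmo1, the methylsterol oxidase, was 1.46-fold lower (adjusted p = 0.00357).

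The sterol dehydrogenase gene Nsdhl, which works beside Msmo1 in removing the methyl groups, showed the second steepest fall of the enzymes. It had 28.9, 22.0 and 25.9 CPM in the knockout-labelled libraries and 85.1, 95.7 and 79.1 CPM in the wild-type libraries. The log2 fold change was -1.76 ± 0.12, or 3.39-fold lower (adjusted p = 1.81e-06). Its partner in the same complex, the ketosteroid reductase gene Hsd17b7, was not called. Hsd17b7 had 62.6, 40.4 and 48.5 CPM in the knockout-labelled libraries and 39.1, 41.1 and 43.8 CPM in the wild-type libraries, with overlapping groups (log2 fold change 0.29, 95% confidence interval -0.04 to 0.62, adjusted p = 0.118). It passed the threshold as higher with no low-count filter (adjusted p = 0.0496) and without knockout replicate 2 (adjusted p = 0.025).

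The closing steps were also lower. Ebp, the sterol isomerase, was 1.82-fold lower (adjusted p = 0.000192) and lies, like Nsdhl, on the X chromosome, whose tested genes had a median log2 fold change of -0.23. Sc5d, the desaturase that follows it, had 85.2, 71.2 and 73.2 CPM in the knockout-labelled libraries and 198.5, 207 and 203 CPM in the wild-type libraries. It was 2.65-fold lower (log2 fold change -1.41 ± 0.10, adjusted p = 1.61e-06), on chromosome 9, with a median of -0.45. Dhcr7, the last reductase, had 16, 19.3 and 25.9 CPM in the knockout-labelled libraries and 28.1, 30.1 and 31.1 CPM in the wild-type libraries (1.46-fold lower, adjusted p = 0.0157), and its call was lost without knockout replicate 1 or 2 (adjusted p = 0.0615 and 0.0655).

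The 18 enzyme genes lie on 13 chromosomes, whose median log2 fold changes over tested genes ran from -0.45 to 0.43. Of the 18, 16 lay below the median of their own chromosome, and of the 8 on chromosomes with a median above 0, 7 were called lower. Over all chromosomes 30.2% of tested genes were called lower, and the share on each chromosome was not computed. Some of these medians were barely above 0, at 0.03 on chromosome 5 and 0.06 on chromosome 14. The libraries of a group also kept a common order across the enzymes. Knockout-labelled replicate 1 was the highest of its group for 16 of the 18 genes. Wild-type replicate 2 was the highest of its group for 15 and wild-type replicate 3 the lowest for 15. How many of all tested genes keep this order was not counted, so it may not be particular to the enzymes.

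Levels were scaled to the union of all annotated exons of a gene. That union can be longer than the transcripts expressed, so ranks between genes are approximate. On this scale Acat2 lost most of its standing. Its level was 15.3 ± 3.01 CPM per kb of exon in the knockout-labelled libraries and 78.9 ± 9.58 CPM per kb in the wild-type libraries (SD, n = 3 each), rank 9 and rank 3 of the 18. In the wild-type libraries Cyp51, Fdps and Acat2 had the highest levels, 79.8, 79.3 and 78.9 CPM per kb, and these did not differ beyond their spread. In the knockout-labelled libraries Fdps had the highest level, 74.2 ± 20.5 CPM per kb, within its spread of Cyp51 at 56.8 ± 10.8 CPM per kb. Tm7sf2 and Dhcr7 were the 2 lowest in both groups, at 1.21 and 3.50 CPM per kb in the knockout-labelled libraries and 1.95 and 5.12 CPM per kb in the wild-type libraries.

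**Figure D3:**
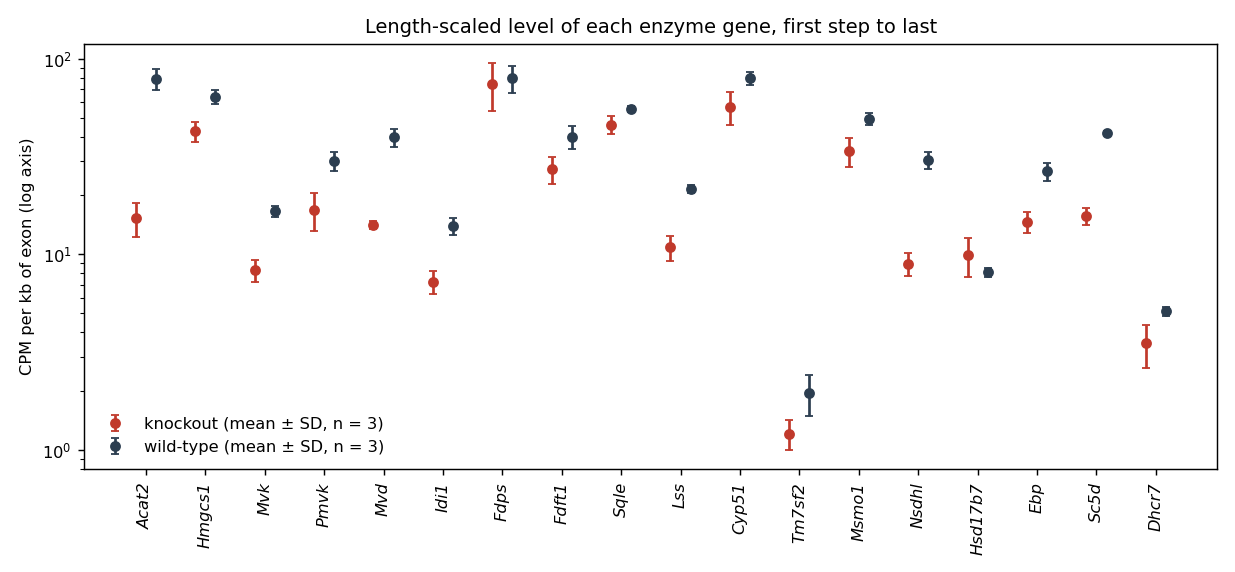
Level of each cholesterol enzyme gene in CPM per kb of exon on a log axis, in pathway order, with knockout-labelled (red, left) and wild-type (dark, right) mean and SD of 3 libraries. Exon length is the union of all annotated exons, so heights of different genes compare only roughly. Acat2 stands among the highest genes in the wild-type libraries at 78.9 and at 15.3 in the knockout-labelled libraries, while Fdps is at 74.2 in the knockout-labelled libraries and 79.3 in the wild-type libraries.

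Of the 2 SREBP genes, Srebf1 was lower and Srebf2 was not called. Srebf1, whose product mainly drives fatty acid synthesis (chromosome 11, 60199084 to 60224186, GRCm38), had 89.4, 94.2 and 91.0 CPM in the knockout-labelled libraries, against 185, 192 and 169 CPM in the wild-type libraries. It was 1.99-fold lower (log2 fold change -0.99 ± 0.09, adjusted p = 9.01e-06), with groups far apart. Srebf2, whose product mainly drives sterol synthesis, had 288, 297 and 354 CPM in the knockout-labelled libraries and 364, 325 and 357 CPM in the wild-type libraries. These groups overlapped (log2 fold change -0.16, 95% confidence interval -0.39 to 0.08, adjusted p = 0.228), and Srebf2 passed as lower only when libraries were scaled by their totals (adjusted p = 0.0373). The count of Srebf1 relative to Srebf2 was 0.310, 0.317 and 0.257 in the knockout-labelled libraries and 0.508, 0.590 and 0.474 in the wild-type libraries.

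Of the genes that hold or escort the SREBPs, Insig1 was lower, Insig2 higher and Scap not called. Insig1, a retention protein whose own gene is an SREBP target, had 157, 122 and 119 CPM in the knockout-labelled libraries, against 269.7, 289 and 229 CPM in the wild-type libraries. It was 1.98-fold lower (log2 fold change -0.98 ± 0.13, adjusted p = 0.000139). Insig2, its paralog, had 47.0, 43.6 and 46.8 CPM in the knockout-labelled libraries and 38.2, 38.4 and 35.9 CPM in the wild-type libraries, a small rise of 1.22-fold (adjusted p = 0.0222). That call was lost with scaling by library totals (adjusted p = 0.186) and without knockout replicate 3 or wild-type replicate 1 or 2 (adjusted p = 0.0501 to 0.0526). Insig1 made up 77.0, 73.6 and 71.8% of the joint Insig1 and Insig2 reads in the knockout-labelled libraries and 87.6, 88.3 and 86.4% in the wild-type libraries. Scap, the escort, had 106, 101 and 95.8 CPM in the knockout-labelled libraries and 86.2, 86.4 and 96.5 CPM in the wild-type libraries (log2 fold change 0.17, adjusted p = 0.129), and it passed as higher without wild-type replicate 3 (adjusted p = 0.0322) and without both libraries numbered 3 (adjusted p = 0.0232).

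Among the 6 fatty acid genes under SREBP control 4 were lower and 0 higher, against 30.2% and 30.7% of tested genes. Every knockout-labelled library lay below every wild-type library for 3 of the 6, against 33.5% of tested genes. The summed level of the 6 was 2684, 2452 and 2612 CPM in the knockout-labelled libraries and 5272, 5520 and 5549 CPM in the wild-type libraries, a ratio of 0.474. Most of that difference was in Scd2, a stearoyl-CoA desaturase that makes monounsaturated fatty acids and the most abundant of the 35 genes. Scd2 had 973, 926 and 1025 CPM in the knockout-labelled libraries, against 3090.3, 3369 and 3424 CPM in the wild-type libraries, and was 3.38-fold lower (log2 fold change -1.76 ± 0.11, adjusted p = 9.44e-07). Its paralog Scd1, 87.6 kb away on chromosome 19, had 474, 391 and 415 CPM in the knockout-labelled libraries and 559, 559.6 and 466 CPM in the wild-type libraries. Scd1 was called lower by 1.24-fold (adjusted p = 0.0379) although knockout-labelled replicate 1 lay above wild-type replicate 3, and the call was lost without knockout replicate 2 or 3 or wild-type replicate 1 or 2 (adjusted p = 0.102 to 0.174).

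The shares of the desaturases did not overlap between the groups. Scd1 made up 32.8, 29.7 and 28.8% of the joint Scd1 and Scd2 reads in the knockout-labelled libraries and 15.3, 14.2 and 12% in the wild-type libraries, although paralogs of such similar coding sequence could exchange reads. The front-end desaturase genes Fads1 and Fads2, which make long polyunsaturated fatty acids, lie 81.4 kb apart on chromosome 19. Fads2 had 89.0, 83.2 and 98.1 CPM in the knockout-labelled libraries, against 187, 200.4 and 195 CPM in the wild-type libraries (2.16-fold lower, adjusted p = 6.26e-06). Fads1 had 459, 401 and 389.6 CPM in the knockout-labelled libraries and 397, 381 and 329 CPM in the wild-type libraries, with overlapping groups (log2 fold change 0.17, 95% confidence interval -0.07 to 0.42, adjusted p = 0.189). Fads2 counts relative to Fads1 counts were 0.194, 0.207 and 0.252 in the knockout-labelled libraries and 0.471, 0.526 and 0.595 in the wild-type libraries.

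For these pairs (Scd1 and Scd2, Insig1 and Insig2, Srebf1 and Srebf2, Fads2 and Fads1) the 4 ratios had groups that did not overlap. An exact two-sided permutation test over the 3 against 3 libraries gave p = 0.1 for each, the smallest value the design allows, and 0.1 after Benjamini-Hochberg adjustment over the 4. The test could not reach 0.05 with these libraries, so it decides nothing. The ratios restate the fold changes of the paired genes. No share over other gene pairs was computed, while groups parted in 67.3% of single tested genes. The 95% confidence intervals of the log2 fold changes within a pair were apart. For example, they were -2.01 to -1.51 for Scd2 and -0.56 to -0.05 for Scd1. For Fads2 and Fads1 they were -1.32 to -0.90 and -0.07 to 0.42. Of the pairs only Scd1 and Scd2 was planned beforehand, and the genes were chosen with earlier results known, so the intervals are description.

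**Figure D4:**
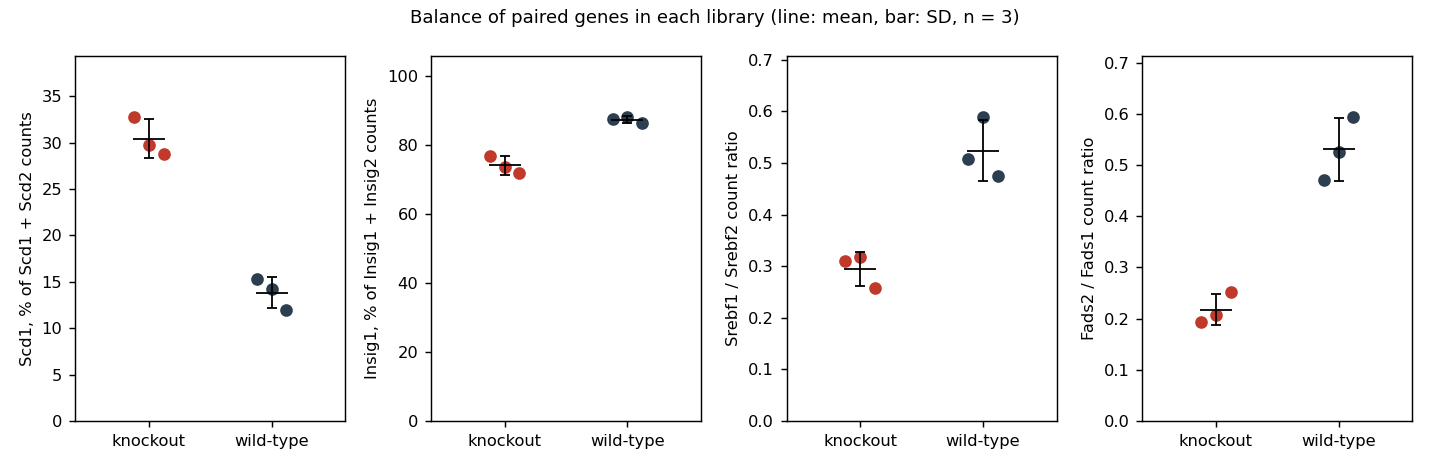
Balance of 4 gene pairs in each library, knockout-labelled left and wild-type right, with mean and SD of 3 libraries. The share of Scd1 is higher in the knockout-labelled libraries (28.8 to 32.8% against 12 to 15.3%), and the share of Insig1 and the ratios of Srebf1 to Srebf2 and of Fads2 to Fads1 are lower.

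Of the enzymes that build the saturated chain, Fasn was lower and Acaca was not called. Fasn, fatty acid synthase, had 454, 432 and 469.7 CPM in the knockout-labelled libraries, against 823, 803 and 909.6 CPM in the wild-type libraries, and was 1.87-fold lower (adjusted p = 2.93e-05). Acaca, the carboxylase that supplies its malonyl-CoA, had 235, 219 and 214 CPM in the knockout-labelled libraries and 215, 207 and 225 CPM in the wild-type libraries. Its log2 fold change was 0.05 (95% confidence interval -0.15 to 0.24, adjusted p = 0.671), and -0.07 when libraries were scaled by their totals.

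Of the 6 sterol transport genes, 3 were higher and 1 was lower, against 30.7% and 30.2% of tested genes. Npc1, the membrane protein that releases cholesterol from late endosomes and lysosomes, had 129, 144 and 150.1 CPM in the knockout-labelled libraries, against 63.4, 58.1 and 54.1 CPM in the wild-type libraries. It was 2.40-fold higher (log2 fold change 1.27 ± 0.10, adjusted p = 4.07e-06). Npc1 lies on chromosome 18, whose tested genes had a median log2 fold change of 0.45, and its range overlaps that of Rmc1 by 8982 bases. Npc2, the soluble lysosomal protein that hands cholesterol to the Npc1 product, had 427, 414 and 394 CPM in the knockout-labelled libraries, against 254, 250.2 and 184 CPM in the wild-type libraries (1.79-fold higher, adjusted p = 0.000287). Both partners of this lysosomal exit had groups that did not overlap, as 33.8% of tested genes did with the knockout-labelled group above.

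Of the remaining transport genes, Abca1 was higher, Mylip was lower, and Abcg1 and Stard4 were not called. Abca1, the transporter that loads cholesterol onto apolipoproteins, had 12.9, 20.5 and 14.8 CPM in the knockout-labelled libraries and 12.2, 9.68 and 8.63 CPM in the wild-type libraries. It was 1.58-fold higher (adjusted p = 0.0149), with groups that barely parted and a call lost without knockout replicate 2 (adjusted p = 0.0655). Abcg1, another sterol exporter, had 0.335 to 0.507 CPM in the knockout-labelled libraries and 0.197 to 0.616 CPM in the wild-type libraries, and at this depth no difference was detectable (95% confidence interval of the log2 fold change -1.0 to 1.16). Mylip encodes an LXR-induced ubiquitin ligase that lowers lipoprotein receptors at the surface. It had 6.49, 10.8 and 7.50 CPM in the knockout-labelled libraries, against 23.9, 22.6 and 12.4 CPM in the wild-type libraries, and was 2.38-fold lower (adjusted p = 0.00349). Mylip and Abca1, both known LXR targets, moved in opposite directions. Stard4, a soluble sterol carrier and SREBP target, had 142, 129 and 148 CPM in the knockout-labelled libraries and 142, 141 and 140.2 CPM in the wild-type libraries (log2 fold change -0.02, 95% confidence interval -0.21 to 0.18, adjusted p = 0.88).

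Over all 35 genes, 23 were lower and 4 higher, against 30.2% and 30.7% of tested genes, and 8 were not called. The knockout-labelled libraries lay wholly below the wild-type libraries for 22 and wholly above them for 4, and groups parted in 67.3% of tested genes. Besides the 5 enzymes, falls of at least 2-fold were called for Scd2, Fads2 and Mylip. Lss, 1.9972-fold lower, lay just short of that mark and Mvk, 2.0029-fold lower, just past it.

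Neighbouring branches were read from further lists, also chosen with earlier results of these data known. Of 8 tested genes of further cholesterol synthesis and cofactor enzymes, 4 were lower and 1 was higher (median -0.38 on the log2 scale). These were 50% and 12.5%, against 30.2% and 30.7% of all tested genes. Por, the reductase that feeds electrons to Cyp51 and Sqle, had 102 to 119 CPM in the knockout-labelled libraries and 158 to 204 CPM in the wild-type libraries (log2 fold change -0.68, adjusted p = 0.000567). Acat1, the mitochondrial thiolase, changed by -0.75 on the log2 scale (adjusted p = 0.000593), and Acat3, with the counts given above, was also called lower (adjusted p = 0.000468). In the branch to isoprenoids and dolichol, 3 of 14 were lower and 5 higher. Together 57.1% were called, near the 60.9% of all tested genes. Ggps1, which extends farnesyl to geranylgeranyl diphosphate, had 57.1 to 69.3 CPM in the knockout-labelled libraries and 40.4 to 42.0 CPM in the wild-type libraries (log2 fold change 0.61, adjusted p = 0.000474), on chromosome 13. Pggt1b, a subunit of the geranylgeranyl transferase, and Coq2, an enzyme of ubiquinone synthesis, rose with log2 fold changes of 1.04 and 1.07 (adjusted p = 7.79e-06 and 5.6e-05), the first on chromosome 18.

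Of 13 genes of SREBP processing and turnover, 5 were higher and 3 lower. The share called in either direction, 61.5%, was near the 60.9% of all tested genes. Paqr3, a Golgi membrane protein reported to tether the SCAP and SREBP complex, had 39.7, 44.7 and 47.5 CPM in the knockout-labelled libraries, against 4.42, 4.26 and 5.63 CPM in the wild-type libraries (log2 fold change 3.21 ± 0.14, adjusted p = 1.1e-07). Erlin1, an endoplasmic reticulum protein reported to restrain SREBP activation, had 376, 364 and 388 CPM in the knockout-labelled libraries, against 69.7, 70.9 and 95.2 CPM in the wild-type libraries (log2 fold change 2.26 ± 0.13, adjusted p = 5.19e-07). In both, every knockout-labelled library lay far above every wild-type library. Pgrmc1, a heme-binding membrane protein that interacts with sterol-metabolising cytochromes, changed by -1.03 on the log2 scale (adjusted p = 1.345e-05). The proteases that cleave SREBPs at the Golgi are encoded by Mbtps1 and Mbtps2, which fall outside the naming rule and were chosen after their values were seen. On the log2 scale Mbtps1 stood at -0.02 (adjusted p = 0.885) and Mbtps2 at 0.46 (adjusted p = 0.00601), which was called higher.

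Of 15 further fatty acid synthesis genes, 9 were lower and 3 higher (median -0.45 on the log2 scale). These were 60% and 20%, against 30.2% and 30.7% of all tested genes. Elovl6, which elongates the product of fatty acid synthase, had 83.1, 57.1 and 66.9 CPM in the knockout-labelled libraries, against 222, 249 and 235 CPM in the wild-type libraries (log2 fold change -1.77 ± 0.14, adjusted p = 3.31e-06). Elovl7, another elongase, rose by 2.89 on the log2 scale (adjusted p = 2.01e-06), and Gpam, which starts glycerolipid synthesis, by 1.15 (adjusted p = 1.37e-05). Of 11 LXR, oxysterol and sterol ester genes tested, 5 were lower and 2 higher. The share called in either direction, 63.6%, was near the 60.9% of all tested genes. Soat1, which esterifies cholesterol for storage, had 234 to 272 CPM in the knockout-labelled libraries and 143 to 158 CPM in the wild-type libraries (log2 fold change 0.74, adjusted p = 0.000103). Cyp27a1, a sterol hydroxylase, was covered by 3, 3 and 6 reads in the knockout-labelled libraries against 139, 103 and 43 in the wild-type libraries (adjusted p = 2.5e-05), and the lipid transporter gene Abca3 changed by -2.7 on the log2 scale (adjusted p = 8.1e-08).

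Of 15 lipoprotein receptors and sterol carriers, 7 were higher and 3 lower. These were 46.7% and 20%, against 30.7% and 30.2% of all tested genes. Vldlr, a lipoprotein receptor, had 223, 209 and 189.7 CPM in the knockout-labelled libraries, against 49.6, 34.6 and 25.1 CPM in the wild-type libraries (log2 fold change 2.5 ± 0.22, adjusted p = 1.95e-05). The sterol-binding carrier genes Stard5 and Osbpl2 rose with log2 fold changes of 3.53 and 2.5 (adjusted p = 8.51e-08 and 1.62e-07). Stard5 had 75.6 to 88.0 CPM in the knockout-labelled libraries and 5.38 to 7.86 CPM in the wild-type libraries.

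**Figure D5:**
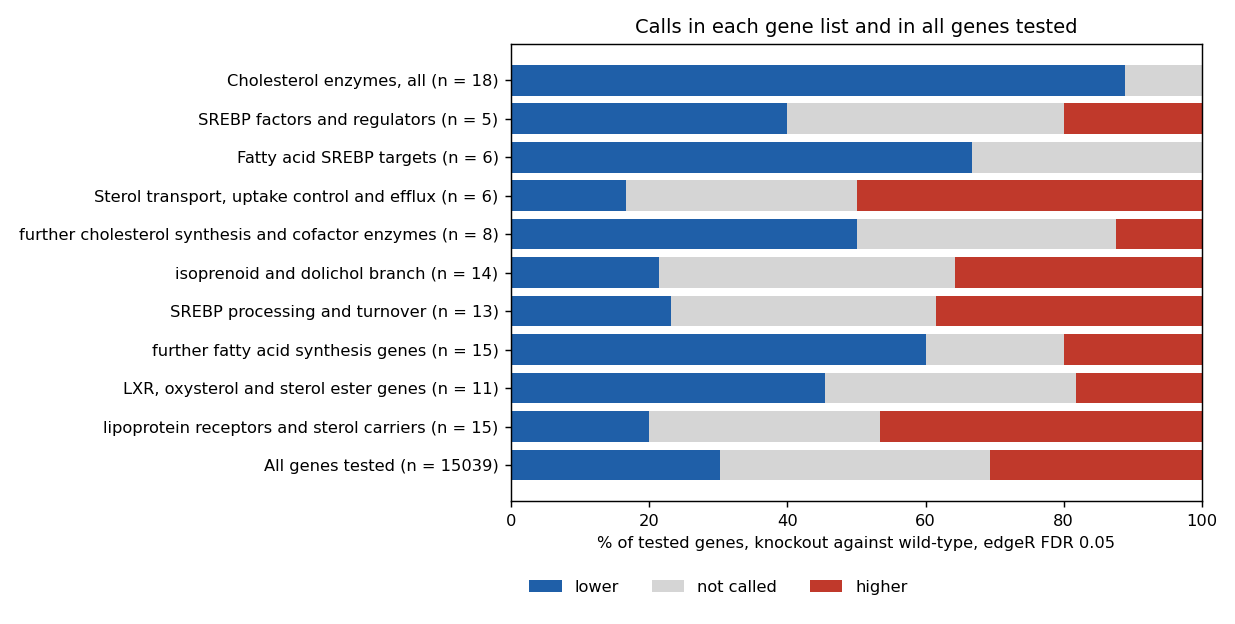
Share of tested genes called lower (blue), not called (grey) and higher (red) in each list and in all 15039 tested genes, in percent on the x axis. The lists were chosen with earlier results of these data known. The cholesterol enzymes show 88.9% lower and none higher, against 30.2% and 30.7% in all tested genes, and the lipoprotein receptor and sterol carrier list shows 46.7% higher.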

How the data were processed

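Total RNA of 3 knockout-labelled and 3 wild-type libraries was extracted with Trizol and prepared by a strand-preserving library kit, as the labels' protocols state. The authors deposited raw counts per gene, keyed by NCBI Gene ID. Per the submitters' processing notes, STAR 2.5.1b and mm10 were used; how reads were counted, on which annotation and with what strand setting is not given in the sources used here. Genes were kept by filterByExpr, scaled by TMM and tested two-sided with edgeR 4.0.16 in R 4.3.3 (robust quasi-likelihood fit, genotype as the only term), with Benjamini-Hochberg adjustment over 15039 genes at 0.05. The common biological coefficient of variation was 15.5%. Standard errors and 95% confidence intervals come from that fit. Length scaling used the exon union of GENCODE M21 (GRCm38). The fit was tested on simulated data. The members and lists were chosen with earlier results of these data known. All 35 members were described, and from each further list the 3 tested genes with the smallest p. The alternatives were DESeq2 1.42.0 (size factors and test), limma-voom (limma 3.58.1), library totals, other filters, a replicate block, structural RNA genes left out, each library left out and both libraries numbered 3 left out. Libraries of a group differed beyond read sampling (median chi-square per gene 2.42 to 9.68), so none was treated as a repeat deposit of another; this does not show that they are separate cultures.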

Additional observations from a re-analysis of the deposited data

How the results depend on the processing

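Of the 35 genes, 21 kept direction and call under all 15 alternatives. The number called lower was 18 to 23 when single libraries were left out and 22 to 24 otherwise, and that of the 18 enzymes 12 to 16 and 15 to 16. With the replicate number as a block, 22 genes were lower, Sqle being the call lost. Deviations of same-numbered libraries correlated at 0.0961, 0.0138 and 0.209 and those of other pairs at -0.176 to 0.149, and both libraries numbered 3 and wild-type replicate 1, but not the other libraries, correlated best with their own number, so the numbers were not taken as pairing. The number of enzymes called higher, 0 in the reported test, was 1 with no low-count filter and 0 to 1 with single libraries left out. The number of SREBP regulators called higher, 1 as reported, was 0 with library totals, 2 without both libraries numbered 3 and 0 to 2 with single libraries left out. The number of further cholesterol synthesis genes called higher, 1 as reported, was 0 with library totals and 0 to 1 with single libraries left out. Of genes not called, the log2 fold change of Acaca was -0.0705 and of Abcg1 -0.0374 with library totals, and that of Stard4 was 0.0107 with no filter. With single libraries left out, Fdps ranged from -0.33 to 0.0568, Stard4 from -0.0375 to 0.0509 and Abcg1 from -0.28 to 0.52. The cause was not tested. Scaling by library totals moved the median over all tested genes to -0.157, against -0.0401 on the log2 scale, and that of the 35 genes to -0.675, against -0.553, and 42.4% in place of 50.4% of called genes were higher. Of the 20 named genes of the further lists, 19 kept direction and call; Mbtps1, not called, was 0.0113 with no filter and -0.0309 to 0.0252 with single libraries left out. Neither Acat3 nor Abcg1 passed the filter of 1 CPM in 3 libraries. Depth limited Abcg1, at under 1 CPM in every library.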
